A study of Mus musculus with 12 samples.

Results

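Every Affymetrix expression array carries control probe sets beside those for its genes. Each is a group of short oligonucleotides, named by its target and, for most targets, by the position along the transcript that it reads. All 104 probe sets whose ID starts with AFFX were taken from the 45141 of the deposited table. No value entered the choice. The IDs gave 13 probe sets for 4 mouse transcripts, 3 for 18S ribosomal RNA, 3 named for mouse repeats, 27 for Bacillus transcripts, 18 for hybridization controls, 23 named nonspecific and 17 named tag. Of the targets, 26 had both a 3' and a 5' probe set. Sequences of these oligonucleotides and their genome positions were not used here.

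The arrays were hybridised with RNA of male BALB/c mice aged 10 weeks, 1 array for each of 12 conditions. Brain or liver was taken at death (0 h), from animals kept for 3 h at room temperature, or from animals kept for 18 h at 4 °C, so time and temperature changed together. Fresh-frozen (FF) pieces went through RNAlater and a 3' in vitro transcription kit, whereas formalin-fixed, paraffin-embedded (FFPE) pieces spent 24 h in 10% formalin and 7 d as blocks at room temperature, were sliced at 10 µm and were labelled with a kit that amplifies whole transcripts from FFPE RNA. Preservation and labelling kit therefore cannot be told apart, and the labels give neither the number of animals nor whether arrays share one.

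The 3' labelling kit primes at the poly-A tail, so a broken or partly copied messenger RNA keeps its 3' signal and loses its 5' signal. The difference between the 3' and 5' probe sets of one transcript, the 3'-5' gap, is for this reason a customary quality measure of such arrays. 18S ribosomal RNA has no poly-A tail. Bacillus transcripts with an added tail are the usual controls of labelling, and the labels do not say in which samples, if any, they were added. Biotin-labelled bioB, bioC and bioD of Escherichia coli and cre of phage P1 belong to the usual hybridization cocktail, which joins the sample after labelling.

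All values below are log2 intensities, and a difference of 1 is a 2-fold change. A gap also holds the unequal affinity of its probes, so its absolute size has no meaning and only its differences between arrays were read. Levels were compared with limma over all 45141 probe sets, with Benjamini-Hochberg adjusted p and a threshold of 0.05. Gaps were compared over 6 matched pairs of arrays with an exact sign-flip permutation test, two-sided, which cannot give a p under 0.03125. Differences are given with their SE for limma and their SD over pairs for gaps.

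The tissue labels fitted the brain and liver markers, except Gfap in FF. Snap25, a synaptic vesicle protein, read 11.93 to 12.63 in brain and 3.25 to 3.42 in liver, and Alb, serum albumin, read 12.80 to 13.12 in liver. Alb stood at 8.74 in FF brain at 0 h and at 5.53 to 7.57 in the other brain arrays. Cyp2e1, a liver cytochrome, stood at 7.47 and at 3.57 to 4.94 in the same comparison. Gfap, an astrocyte protein, stayed at 4.32 to 6.24 in brain. The median of an array lay between 4.65 and 4.68 for FF, and for FFPE between 4.80 and 4.88.

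Between FFPE and FF, the 3' and 5' ends of the same mouse transcripts differed in unlike ways. For the Actb and Pcx controls the 3' probe set was lower and the 5' probe set higher in FFPE, for the Gapdh control the 3' was higher and the 5' lower, and for the Tfrc control both were higher. In limma, 36 control probe sets were higher and 29 lower in FFPE brain, or 62.5% against 73.4% of all probe sets called. In liver 40 were higher and 36 lower, or 73.1% against 62.8% of all. The 13 mouse transcript probe sets gave 8 higher and 3 lower calls in brain and 10 higher and 3 lower in liver. The median difference over all probe sets was 0.07 in brain and 0.04 in liver as deposited. Hybridization control centring set each array on the mean of its BioB, BioC, BioDn and CreX probe sets, without those named r2. It moved the median difference to -1.62 and -1.06, and left 6.38% and 8.54% of the called control probe sets on the higher side, against 55.4% and 52.6% as deposited. With each array centred on its median it was -0.13 and -0.12 and the shares were 34.8% and 35.8%, and quantile normalization gave 42.1% and 48.7%. Gaps are differences within an array and are unaffected by such centring.

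Actb encodes beta-actin of the cytoskeleton. Its 3' probe set, b-ActinMur 3, read 11.98, 12.03 and 12.03 in FF brain and 11.32, 11.03 and 11.45 in FF liver at 0, 3 and 18 h. In FFPE the same probe set read 11.28, 11.38 and 11.35 in brain and 10.87, 10.51 and 10.66 in liver. Every FFPE array lay below every FF array of its tissue. The difference was -0.68 ± 0.09 (SE) in brain and -0.59 ± 0.09 in liver, with limma adjusted p of 0.000147 and 0.000557.

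The b-ActinMur 5 probe set gave the opposite order. It read 10.77, 10.82 and 10.71 in FF brain and 10.23, 9.03 and 9.55 in FF liver. In FFPE it read 11.40, 11.33 and 11.45 in brain and 10.99, 10.52 and 10.84 in liver. Here every FFPE array lay above every FF array of its tissue, by 0.63 ± 0.13 in brain and 1.18 ± 0.13 in liver (limma adjusted p = 0.00234 and 7.16e-05), but with hybridization control centring the brain difference was -1.06 and the liver difference 0.08 (adjusted p = 0.622). The middle probe set differed by -0.10 in brain (adjusted p = 0.383) and by 0.38 in liver (adjusted p = 0.00962), and the liver difference was -0.71 with hybridization control centring.

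The Actb gap was accordingly narrower in FFPE. It was 1.21, 1.21 and 1.32 in FF brain and 1.09, 2.00 and 1.90 in FF liver. In FFPE it was -0.12, 0.05 and -0.10 in brain and -0.12, -0.01 and -0.18 in liver. The groups did not overlap, and FFPE was lower in 6 of 6 pairs, at -1.54 ± 0.41 (SD, exact permutation p = 0.03125, adjusted p = 0.0602).

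Gapdh encodes a glycolytic enzyme. Its 3' probe set, GapdhMur 3, read 11.86, 11.91 and 11.80 in FF brain and 11.20, 11.14 and 11.43 in FF liver. FFPE arrays gave 12.09, 12.08 and 12.06 in brain and 11.65, 11.68 and 11.80 in liver. All FFPE arrays lay above the FF arrays of their tissue, by 0.22 ± 0.08 in brain (limma adjusted p = 0.0386) and 0.45 ± 0.08 in liver (adjusted p = 0.0013), with the sign turned by hybridization control centring (-1.46 and -0.64). The brain call was lost with any 1 of the 6 brain arrays left out (adjusted p from 0.0782 to 0.145), under median centring (0.844), under quantile normalization (0.117) and with low values filtered (0.0772).

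At the 5' end the difference went the other way. GapdhMur 5 read 11.88, 11.91 and 11.75 in FF brain and 11.17, 10.32 and 10.29 in FF liver. Its FFPE values were 10.87, 10.83 and 10.84 in brain and 10.61, 10.05 and 10.03 in liver. The brain arrays separated by -1 ± 0.09 (limma adjusted p = 1.18e-05), and the liver arrays, which overlapped, differed by -0.36 ± 0.09 (adjusted p = 0.00871). The liver call was lost without the FF or the FFPE liver array at 0 h (adjusted p = 0.063 for either). GapdhMur M lay between, at -0.19 in brain (adjusted p = 0.0866) and 0.29 in liver (adjusted p = 0.0232), the latter turning to -0.81 with hybridization control centring. The call for liver was also lost under median centring (adjusted p = 0.252), with liver fitted alone (0.0619), without either liver array at 3 h (0.106) and without either at 18 h (0.104).

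The Gapdh gap was therefore wider in FFPE, in contrast to that of Actb. It was -0.02, 0.00 and 0.05 in FF brain and 0.03, 0.82 and 1.14 in FF liver. In FFPE it was 1.22, 1.25 and 1.22 in brain and 1.04, 1.63 and 1.77 in liver. Within each time and tissue FFPE was higher, in 6 of 6 pairs, by 1.02 ± 0.25 (exact permutation p = 0.03125, adjusted p = 0.0602). Across times the liver arrays overlapped, since FF liver at 18 h reached 1.14 and FFPE liver at 0 h stood at 1.04.

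Pcx encodes pyruvate carboxylase, a mitochondrial enzyme of gluconeogenesis that is abundant in liver. PyruCarbMur 3 read 7.52, 7.60 and 7.49 in FF brain and 9.71, 9.98 and 9.89 in FF liver. In FFPE it read 5.71, 5.69 and 5.84 in brain and 9.17, 9.27 and 8.68 in liver. FFPE was lower without overlap, at -1.79 ± 0.13 in brain and -0.82 ± 0.13 in liver (limma adjusted p = 1.97e-06 and 0.000525).

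PyruCarbMur 5 was at 4.15 to 4.61 in all 6 FF arrays, below the median of each. Among FFPE arrays it read 5.22, 5.03 and 5.40 in brain and 6.42, 7.04 and 6.50 in liver, above every FF array. The difference was 1.04 ± 0.14 in brain and 2.11 ± 0.14 in liver (limma adjusted p = 0.000136 and 3.27e-06), although with hybridization control centring the brain difference was -0.64. PyruCarbMur MA and MB, both named as middle probe sets, were higher in FFPE by 1.29 and 0.62 in brain and by 2.04 and 0.91 in liver. With hybridization control centring the differences of MA and MB in brain were -0.39 and -1.06 and that of MB in liver -0.19.

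The Pcx gap was 3.29, 3.45 and 3.34 in FF brain and 5.10, 5.48 and 5.36 in FF liver. In FFPE it was 0.49, 0.66 and 0.44 in brain and 2.75, 2.23 and 2.18 in liver. It was lower in FFPE in 6 of 6 pairs, at -2.88 ± 0.32 (exact permutation p = 0.03125, adjusted p = 0.0602), and no FFPE array of a tissue reached an FF array of that tissue.

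Tfrc encodes the transferrin receptor, which takes up iron. Its 3 control probe sets were dim: all lay below the array median in each FF array, at 3.40 to 3.79. TransRecMur 5 read 5.34, 5.71 and 5.22 in FFPE brain and 4.96, 5.79 and 5.10 in FFPE liver, above its 3.46 to 3.79 in FF. TransRecMur 3 reached only 4.10 to 4.25 in FFPE brain and 3.98 to 4.62 in FFPE liver, below the median there too. The FFPE difference of TransRecMur 5 was 1.90 ± 0.17 in brain and 1.62 ± 0.17 in liver (limma adjusted p = 8.71e-06 and 4.75e-05), and that of TransRecMur 3 was 0.65 and 0.70. With hybridization control centring the 3' differences were -1.03 and -0.39, those of the middle probe set were -0.51 and -0.18, and the brain difference of the 5' probe set was 0.22 (adjusted p = 0.188). The gap ran from -0.21 to 0.08 in FF and from -1.46 to -0.72 in FFPE, lower in 6 of 6 pairs at -1.08 ± 0.32 (exact permutation p = 0.03125, adjusted p = 0.0602).

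18S is the RNA of the small ribosomal subunit. 18SRNAMur 3 read 11.11, 11.16 and 10.88 in FF brain and 11.25, 10.29 and 10.45 in FF liver. The FFPE arrays read 12.75, 12.74 and 12.80 in brain and 12.64, 12.75 and 12.83 in liver. FF liver read lower at 3 and 18 h than at 0 h, and the FFPE arrays lay close together. 18SRNAMur 5 ran from 11.26 to 11.87 in FF and from 12.05 to 12.31 in FFPE, and 18SRNAMur M from 10.49 to 11.61 and from 12.87 to 12.97. In FFPE the 3' and M values lay near the highest value of any probe set on those arrays (13.13 to 13.21). Every difference or gap that involves them may therefore be compressed. All 3 were higher in FFPE in both tissues in limma, by 0.88 to 2.24 in brain and 0.55 to 2.08 in liver, but hybridization control centring turned the 5' differences to -0.80 and -0.55 and left the 3' difference in brain at 0.03 (adjusted p = 0.852). The gap was -0.25, -0.17 and -0.46 in FF brain, -0.62, -1.22 and -0.81 in FF liver, and 0.49 to 0.69 in FFPE. FFPE was higher in 6 of 6 pairs, by 1.18 ± 0.45 (exact permutation p = 0.03125, adjusted p = 0.0602). Measured from 3' to M, the difference between preservations had opposite signs in the tissues. That span was 0.35, 0.32 and 0.39 in FF brain against -0.18, -0.17 and -0.17 in FFPE brain, and -0.36, -0.82 and -0.32 in FF liver against -0.25, -0.12 and -0.11 in FFPE liver.

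Over all 26 targets, the FFPE-FF difference of the gap had an unadjusted p of 0.03125 for 22, and none passed after adjustment (smallest adjusted p = 0.0602). Over the 26 mean differences, 9 were positive and 17 negative. The 22 included the tag targets, at 0.73 ± 0.41 (SD) for TagIN, 0.38 ± 0.09 for TagJ, -0.73 ± 0.13 for TagO and -0.45 ± 0.26 for TagQ. Their probe sets lay below the median of every array, except TagIN 3 in some FFPE arrays. A shifted gap was therefore not particular to the mouse transcripts. With 6 pairs the test cannot give a smaller p, so the missed threshold says little about the size of the differences.

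Probe sets of the same genes outside the controls gave a further reading. The Pcx probe set 1416383_PM_a_at read 7.17 to 7.31 in FF brain and 4.91 to 5.57 in FFPE brain, with a difference of -1.91 ± 0.15 in brain and -0.79 ± 0.15 in liver, near the values of PyruCarbMur 3. Actb had 2 probe sets, of which 1419734_PM_at was higher in FFPE by 0.96 in brain and 0.90 in liver, and 1436722_PM_a_at differed by -0.14 and 0.14 without passing. The Gapdh probe set 1418625_PM_s_at differed by 0.20 in brain (limma adjusted p = 0.0618) and by 0.55 in liver (adjusted p = 0.000521). Tfrc had 3 probe sets, which differed in direction. The dim 1422967_PM_a_at was higher in FFPE, as the Tfrc controls were, by 2.35 in brain and 1.58 in liver (adjusted p = 7.00e-07 and 1.87e-05). The second, 1422966_PM_a_at, was higher in brain by 0.70 (adjusted p = 0.00815) and stood at -0.09 in liver (0.686). The brightest, 1452661_PM_at, read 6.32 to 8.59 over the 12 arrays and was lower in FFPE, at -1.04 ± 0.09 in brain and -0.82 ± 0.09 in liver (adjusted p = 5.00e-06 and 4.68e-05).

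B1 and B2 are short interspersed repeats found in many mouse transcripts. The IDs MURINE_b1, MUR_b2 and MURINE_B2 name no locus, and which transcripts they read is not given in the sources used here. MURINE_b1 read 12.96, 12.94 and 12.96 in FF brain but 7.58, 7.76 and 8.40 in FF liver. In FFPE it read 12.78, 12.86 and 12.84 in brain and 10.32, 10.38 and 10.91 in liver. The brain values lay near the highest value of any probe set on those arrays (13.06 to 13.07 for FF brain, 13.13 to 13.17 for FFPE brain). Every difference that involves them may therefore be compressed. The tissues did not overlap under either preservation, and the FFPE-FF difference was 2.62 ± 0.09 in liver (limma adjusted p = 1.22e-07) and -0.13 ± 0.09 in brain (adjusted p = 0.212). MUR_b2 read 8.62, 8.73 and 8.44 in FF brain and 8.22, 8.58 and 9.07 in FF liver, and it was higher in FFPE by 1.21 and 1.24, which hybridization control centring turned to -0.47 in brain and lowered to 0.15 in liver (adjusted p = 0.383). MURINE_B2 was near the top of the scale, at 12.46 to 13.07 in all arrays, and its FFPE-FF differences of -0.19 and -0.06 did not pass (adjusted p = 0.0574 and 0.546).

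Most Bacillus controls were lower in FFPE. The 24 probe sets for dap, lys, phe and thr read 3.39 to 8.63 in FF brain, 3.91 to 9.81 in FF liver and 3.04 to 4.64 in FFPE. Of the 27 including trpn, limma called 18 lower in FFPE brain and 24 in liver, against 15708 and 13472 of all 45141 probe sets. In FFPE all 24 lay below the median of every array, and the nonspecific probe sets read 2.69 to 3.54, so the sizes of these differences are limited by the floor and are lower bounds. The r2-Bs-dap 3 probe set read 8.49, 8.56 and 8.63 in FF brain, 9.05, 9.81 and 9.69 in FF liver, and 3.19 to 3.31 in FFPE. Its fitted differences were -5.33 ± 0.13 and -6.23 ± 0.13 (limma adjusted p = 1.20e-08 and 3.40e-08). DapX 3 was at -4.50 and -5.45, and r2-Bs-dap M at -3.82 and -5.14. The 3 higher calls in each tissue were the trpn probe sets, which belong to no usual labelling mix and read 2.91 to 3.94 in FF and 3.35 to 4.42 in FFPE. Their differences of 0.60, 0.23 and 0.21 in brain and 0.33, 0.48 and 0.23 in liver, for TrpnX 3, 5 and M, became -1.09, -1.45 and -1.47 and -0.76, -0.61 and -0.87 with hybridization control centring.

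The gaps of these controls varied among FF arrays. The older and the r2 probe sets share their targets, so they are not independent. The dap gaps, chosen for display after their values were seen, were 3.51, 3.57 and 2.85 for DapX in FF brain and 2.29, 2.34 and 2.84 in FF liver. For r2-Bs-dap they were 3.77, 3.49 and 2.64 in FF brain and 1.59, 1.82 and 2.81 in FF liver. Both were widest at 0 or 3 h in brain and narrowest at 0 h in liver. In FFPE, where the probe sets were dim, DapX gaps lay between -0.33 and 0.05. The ThrX gap was higher in liver than in brain in 6 of 6 pairs, by 0.54 ± 0.43, and the LysX gap by 0.51 ± 0.22 (exact permutation p = 0.03125 and adjusted p = 0.0602 for each). With the r2 probe sets the gap was higher in 5 of 6 pairs, by 0.42 ± 0.55 for thr and 0.15 ± 0.18 for lys (exact permutation p = 0.0625, adjusted p = 0.108 for each). The mean liver-brain difference of the dap gaps was negative, at -0.325 for DapX and -0.622 for r2-Bs-dap, without passing.

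The 18 hybridization control probe sets were all called higher in FFPE in both tissues. Over all 45141 probe sets limma called 17422 higher in brain and 14861 in liver. The median difference of the 18 was 1.81 in brain, from 0.79 to 2.26, and 1.08 in liver, from 0.79 to 1.47. The older and the r2 probe sets share the targets bioB, bioC, bioD and cre, so the 18 are not independent. The brightest reached 13.17 in FFPE brain, the highest value of any probe set on those arrays, so its differences may be compressed. BioB 3, with the largest difference, read 6.94, 7.10 and 6.77 in FF brain and 7.53, 7.95 and 7.94 in FF liver. After fixation it read 9.12, 9.23 and 9.25 in brain and 9.15, 9.21 and 9.46 in liver. The difference was 2.26 ± 0.11 in brain and 1.47 ± 0.11 in liver (limma adjusted p = 1.63e-07 and 5.19e-06), followed by r2-Ec-bioB 3 at 2.26 and 1.37 and BioDn 3 at 2.08 and 1.36. Hybridization control centring takes as 0 the mean difference of the BioB, BioC, BioDn and CreX probe sets and leaves out the r2 probe sets. Single probe sets are not set to 0. After it, 5 of the 18 were still called higher and 5 were called lower in brain, against 1 and 0 in liver.

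The nonspecific probe sets are numbered by the G and C bases of their probes. All 23 means were lower in FFPE in both tissues, and the difference was widest at the highest numbers. Values are given at a few numbers to show its course. At GC3 it was -0.07 in brain and -0.08 in liver, at GC15 -0.11 and -0.14, at GC20 -0.27 and -0.22, and at GC24 -0.72 and -0.49. GC25 stood apart, with means of 5.37 in FF brain against 2.91 in FFPE brain and of 5.45 against 3.27 in liver (-2.46 ± 0.11 and -2.18 ± 0.11, limma adjusted p = 1.28e-07 and 8.05e-07). Limma called 8 lower in brain and 7 in liver, or 34.8% and 30.4%, against 73.4% and 62.8% of all probe sets called in either direction. For 15 of the 23, every FF array lay above every FFPE array. The share of all probe sets without such overlap was not counted, so the 15 cannot be set against it. The 17 tag probe sets stayed at 2.95 to 5.10, with 3 higher calls in brain and 4 higher and 2 lower in liver. That was 17.6% and 35.3%, against 73.4% and 62.8% of all probe sets called. The largest was TagO 5 at 0.86 and 0.77, which hybridization control centring turned to -0.83 and -0.33. That centring gave all 7 higher tag calls a negative sign.

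The FFPE-FF difference itself differed between liver and brain for 46 control probe sets, 8 of them more positive in liver and 38 more negative, or 44.2% against 40.6% of all probe sets. The share more positive was 17.4%, and it was 75.4% with hybridization control centring. The more negative calls were 24 Bacillus and 14 hybridization controls. As the 24 Bacillus probe sets were near the floor in FFPE, their contrast largely repeats the liver-brain difference of FF: for DapX 5 it was -1.94, against a liver-brain difference of 2.04 in FF. The more positive were MURINE_b1 (2.75 ± 0.12, limma adjusted p = 1.20e-06) and 7 mouse transcript probe sets. The brain values of MURINE_b1 lay near the top of the scale, which limits its brain difference. PyruCarbMur 5, 3 and MA gave 1.07, 0.97 and 0.75, with adjusted p of 0.00288, 0.00292 and 0.00152. As PyruCarbMur 5 lay below the median of every FF array, its contrast largely follows the liver-brain difference in FFPE, 1.44 against 0.37 in FF. GapdhMur 5 gave 0.64 and GapdhMur M 0.48 (adjusted p = 0.00518 and 0.0174). B-ActinMur 5 gave 0.55 and b-ActinMur M 0.49 (adjusted p = 0.0449 and 0.0253). Quantile normalization ended the calls of GapdhMur M, b-ActinMur 5 and b-ActinMur M (adjusted p = 0.108, 0.115 and 0.158). So did the omission of a single array, for 6, 10 and 6 of the 12 arrays in that order.

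Between the tissues, 43 control probe sets were higher in FF liver than in FF brain and 8 lower, or 49.0% against 57.1% of all probe sets. In FFPE 16 were higher and 16 lower, or 30.8% against 45.5%. The higher share was 84.3% in FF and 50.0% in FFPE, against 40.6% and 75% with hybridization control centring, which called 20 in FFPE. Without FFPE brain at 0 h the FFPE count was 20, and without FFPE brain at 18 h it was 21.

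The Pcx probe sets were higher in liver. The difference was 2.32 ± 0.13 for PyruCarbMur 3, 0.39 for MA and 0.88 for MB in FF (limma adjusted p = 3.08e-07, 0.00474 and 3.22e-05), and 0.37 for PyruCarbMur 5, which did not pass (0.0508). Centring on hybridization controls turned the FF difference of MA to -0.08. In FFPE all 4 were higher in liver, by 3.29, 1.44, 1.13 and 1.16 for 3', 5', MA and MB. Actb and Gapdh probe sets were lower in liver at each position. In FF the liver-brain difference of b-ActinMur 3, M and 5 was -0.75, -0.98 and -1.16, and that of GapdhMur 3, M and 5 was -0.60, -0.91 and -1.25. In FFPE these differences were -0.66, -0.50 and -0.61 for b-ActinMur and -0.37, -0.43 and -0.62 for GapdhMur. With hybridization control centring b-ActinMur M and GapdhMur 3 and M in FFPE kept the sign without passing (adjusted p = 0.0502, 0.239 and 0.121).

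MURINE_b1, near the top of the scale in brain, was lower in liver, at -5.04 ± 0.09 in FF and -2.29 ± 0.09 in FFPE (limma adjusted p = 1.79e-10 and 2.65e-08). MURINE_B2 was lower at -0.42 ± 0.08 in FF and -0.29 ± 0.08 in FFPE (adjusted p = 0.00178 and 0.0168). The FFPE call of MURINE_B2 was lost with hybridization control centring (adjusted p = 0.45) and without any 1 of 4 FFPE arrays, the 3 of brain and liver at 0 h (adjusted p from 0.0566 to 0.0907). MUR_b2 differed by 0.03 and 0.06. Of the 18S probe sets only 18SRNAMur M passed, in FF (0.47 ± 0.16, adjusted p = 0.0307), and it lost the call with any of 5 of the 6 FF arrays left out, all but FF liver at 18 h (adjusted p from 0.0566 to 0.214), and was at 0 with hybridization control centring. The 24 dap, lys, phe and thr probe sets were all called higher in FF liver, against 13512 of all 45141 probe sets. Among them r2-Bs-dap 5 was at 2.18 ± 0.26 and DapX 5 at 2.04 ± 0.22. In FFPE 2 of the 27 Bacillus probe sets passed, LysX 3 at 0.43 and TrpnX 5 at 0.33, against 20524 of all 45141 in either direction.

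The Pcx gap was higher in liver than in brain in 6 of 6 pairs, by 1.91 ± 0.25 (exact permutation p = 0.03125, adjusted p = 0.0602). Since PyruCarbMur 5 lay below the median of all 6 FF arrays, the FF part of this difference mainly follows the 3' probe set. The Gapdh gap was higher in liver in 5 of 6 pairs, by 0.45 ± 0.47 (exact permutation p = 0.0938, adjusted p = 0.157), and the exception was the FFPE pair at 0 h, at 1.04 in liver and 1.22 in brain. The Actb gap was higher in liver in 2 pairs, lower in 3 and equal in 1. None of the 26 targets passed after adjustment, and 5 had an unadjusted p of 0.03125.

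After death, 1 Actb or Gapdh control probe set passed, GapdhMur 5, which fell in liver at 18 h. GapdhMur 3 read 11.20 at 0 h and 11.43 at 18 h in FF liver, and 11.65 and 11.80 in FFPE liver, without passing. In brain no control probe set passed in limma at 3 h, when 1 had an unadjusted p below the threshold, or at 18 h, when 0 had. Over all probe sets 0.0310% were called at 3 h and 0.0111% at 18 h. An unadjusted p below the threshold was held by 4.9% and 4.12% of all. The largest fitted change of a mouse transcript control in brain, over FF and FFPE together, was -0.14 at 3 h and -0.13 at 18 h. Between single arrays at 3 and 0 h the changes ran from -0.21 to 0.25 in FF and from -0.19 to 0.37 in FFPE. At 18 h they ran from -0.26 to 0.12 in FF and from -0.12 to 0.18 in FFPE.

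In liver at 3 h, 0 of 104 passed (smallest limma adjusted p = 0.101), against 0.0665% of all probe sets called. An unadjusted p below the threshold was held by 14 of the 104 and by 7.83% of all probe sets. The smallest adjusted p belonged to GapdhMur 5, whose fitted value was -0.71 ± 0.12. B-ActinMur M and 5 were at -0.72 (adjusted p = 0.12) and -0.84 (adjusted p = 0.176), b-ActinMur 3 at -0.33 (0.505), and GapdhMur 3 at -0.02 (0.994). Limma with a variance trend called 2 control probe sets lower at 3 h, and hybridization control centring 4.

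At 18 h in liver 4 passed, 2 higher and 2 lower, or 3.85% against 7.60% of all probe sets. An unadjusted p below the threshold was held by 20 of the 104 and by 21.05% of all probe sets. PyruCarbMur MB and GapdhMur 5 fell, at -0.82 ± 0.11 and -0.73 ± 0.12 (limma adjusted p = 0.00457 and 0.00767). PyruCarbMur MB read 5.85, 5.23 and 4.89 in FF liver and 6.56, 6.24 and 5.89 in FFPE liver at 0, 3 and 18 h. GapdhMur 5, whose values are given above, was also lower at 18 h than at 0 h in both liver series. MUR_b2 rose by 0.74 ± 0.13 and MURINE_b1 by 0.71 ± 0.11 (adjusted p = 0.0124 and 0.00611). MUR_b2 read 9.61, 9.76 and 10.23 in FFPE liver, in the same order as its FF values.

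Of the mouse transcript probe sets, b-ActinMur M was at -0.48 (adjusted p = 0.0549), b-ActinMur 5 at -0.42 (0.187) and b-ActinMur 3 at -0.04 (0.906), none of which passed. GapdhMur 3 was at 0.19 (0.345). The 18S probe sets were at -0.31, -0.25 and -0.40 for 3', 5' and M, also without passing. Their FF liver values at 18 h differed from 0 h by -0.84 to -0.61, whereas those of FFPE liver differed by 0.05 to 0.19. In FFPE the 3' and M probe sets of 18S were near the top of the scale. Of the 8 reference genes analysed here, 4 were called lower in liver at 18 h, among them Pgk1 at -1.33 and Rplp0 at -1.12, while 0 were called higher. Over all 45141 probe sets 2285 were called lower and 1144 higher. Polr2a, which was not called, read 6.48 at 0 h and 7.93 at 18 h in FF liver, and 6.76 and 7.09 in FFPE liver. No reference gene passed at 3 h, when Pgk1 was at -0.50 (limma adjusted p = 0.272). Of the 3 Tfrc gene probe sets, 1452661_PM_at rose in liver at 3 h by 1.21 ± 0.11 (limma adjusted p = 0.0142). The others, 1422966_PM_a_at and 1422967_PM_a_at, were at -0.03 and 0.34 (adjusted p = 0.994 and 0.731), and the 3 Tfrc controls at 0.18 to 0.37, without passing.

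Hybridization controls moved in the same arrays. All 18 read higher than at 0 h in FF liver at 3 h (0.21 to 0.48) and at 18 h (0.18 to 0.52) and in FFPE liver at 18 h (0.02 to 0.50). All 18 read lower in FF brain at 18 h (-0.32 to -0.01). Over all 45141 probe sets 22857, 22865 and 23534 read higher in those liver arrays in that order, and 21480 lower in FF brain at 18 h. None of the 18 passed in limma, and they are not independent, since the older and the r2 probe sets share targets. Hybridization control centring moved the median change of all probe sets in liver at 18 h to -0.34, called 0 control probe sets higher and 16 lower, and left MUR_b2 at 0.38 and MURINE_b1 at 0.35 (limma adjusted p = 0.133 and 0.161). Without FF liver at 0 h the count at 18 h was 1, PyruCarbMur MB, and GapdhMur 5, MURINE_b1 and MUR_b2 lost their calls (adjusted p = 0.0672, 0.0537 and 0.0989). Without FFPE liver at 0 h it was 7, and with liver fitted alone 0. Quantile normalization called 6, of which 66.7% were higher, against 50% as deposited. The part of the hybridization controls in the liver changes was not tested.

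The 24 dap, lys, phe and thr probe sets were all higher in FF liver at 3 h than at 0 h, by 0.23 to 1.58 with a median of 0.72, and 18 of the 24 at 18 h, with a median of 0.21. In FFPE liver at 3 h 11 were higher, 11 lower and 2 equal. Of all 45141 probe sets 22857 were higher in FF liver at 3 h, 22865 at 18 h, and 21703 in FFPE liver at 3 h. The 24 are not independent, since the older and the r2 probe sets share targets. None of the 27 passed in limma at either time. Some blood and macrophage markers changed in the same liver arrays. Of the 3 blood markers, Hbb-b2, a haemoglobin chain, rose by 1.31 at 3 h and 1.12 at 18 h (limma adjusted p = 0.00857 and 0.001). Hba-a1, another haemoglobin chain, read 11.33, 12.41 and 12.25 in FF liver and 9.66, 11.43 and 10.93 in FFPE liver at 0, 3 and 18 h, and passed at 18 h (adjusted p = 0.0138) but not at 3 h (0.0675). Alas2, of haem synthesis in red cell precursors, was at 0.10 and -0.30 without passing (adjusted p = 0.954 and 0.214). Of the 3 macrophage markers only Vsig4, a Kupffer cell receptor, passed, at -1.91 at 3 h and -0.88 at 18 h (adjusted p = 0.0287 and 0.0423), while Cd5l and Clec4f were at -1.46 and -1.02 at 3 h (0.0959 for each). In such bulk tissue, fewer cells of a type and less RNA per cell cannot be told apart, and their part in the control values was not tested.

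The change at 3 h differed between liver and brain for 0 control probe sets in limma, against 0.00886% of all probe sets called. An unadjusted p below the threshold was held by 8 of the 104 and by 6.57% of all. At 18 h the change differed for 1, PyruCarbMur MB at -0.89 ± 0.16 (adjusted p = 0.0347), against 1.87% of all called. Here 16 of the 104 and 15.61% of all had an unadjusted p below the threshold. The PyruCarbMur MB call was lost without any 1 of 9 arrays (adjusted p from 0.0595 to 0.184). It held without FF liver at 18 h, FFPE liver at 0 h and FFPE liver at 18 h. Without FFPE liver at 18 h the count was 3, with hybridization control centring it was 8, all lower, and with quantile normalization it was 2, of which 1 was higher.

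The change of each gap was split at the middle probe set. In FF liver the Gapdh gap stood 0.79 above 0 h at 3 h and 1.11 above at 18 h, of which 0.37 and 0.57 lay between the 3' and M probe sets and 0.42 and 0.54 between M and 5'. In FFPE liver the gap stood 0.59 and 0.73 above, with 0.21 and 0.18 between 3' and M and 0.38 and 0.55 between M and 5'. In brain no Gapdh gap moved by more than 0.07. The Actb gap in FF liver stood 0.91 and 0.81 above 0 h, and in FFPE liver it differed from 0 h by 0.11 and -0.06.

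The Pcx gap moved in opposite ways in the 2 liver series, by 0.38 and 0.26 in FF and by -0.52 and -0.57 in FFPE. For 18S the FF liver gap moved by -0.60 and -0.19, and the FFPE gap, with its 3' probe set near the top of the scale, by 0.10 and 0.07. Tested over all 4 series by an exact relabelling of the 0 h array, later arrays exceeded 0 h by 0.42 for Gapdh (p = 0.0247, exact permutation, adjusted p = 0.413) and by 0.26 for Actb (p = 0.0741, same adjusted p). The other unadjusted p below the threshold was that of BioDn, at -0.08 (exact permutation p = 0.037). None of the 26 targets passed, and within 1 tissue the smallest p that relabelling allows is 0.111, so liver alone was not tested.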

How the data were processed

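The unit throughout is log2 intensity, 1 deposited value per probe set and array. Per the submitters' processing notes the authors used RMA and Affymetrix Expression Console. RMA subtracts background, normalises between arrays and combines the probes of a set; whether all arrays shared 1 run, and the software version, are not given in the sources used here. Table values ran from 2.66 to 13.44. Arrays have no read depth, and their number limits the precision.

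Probe sets with IDs starting with AFFX were grouped by the target and position in the ID. None of the 104 is among the 29449 probe sets of the gene annotation table, of which 28898 are listed with 1 gene and 551 with several. The members, gene lists and tests were chosen with earlier results of these data known. The mouse transcript controls and 18S were all named, some with the value of every array and others with ranges or differences only. Other controls were named as the 3 largest differences per direction, with exceptions stated.

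Levels were fitted with limma 3.58.1 in R 4.3.3 over all 45141 probe sets without a filter. The model held 4 tissue-by-preservation means and the 3 h and 18 h change in each tissue (8 coefficients, 4 residual degrees of freedom), gave 11 comparisons and was checked on simulated data. FFPE-FF and liver-brain rest on 3 arrays against 3, and a change in time on 2 arrays per tissue and time. No condition had a replicate, so p-values measure only the spread between these arrays. No limma fit with a replicate block was possible because every group holds 1 array. Gaps (3' minus 5') were tested in Python 3.11.15 by exact sign flips over 6 pairs matched by time and by tissue or preservation (64 patterns) or by relabelling the 0 h array in 4 series (81 relabelings), two-sided, with Benjamini-Hochberg adjustment over 52 tests and over 26 targets. Alternatives changed the scale, filter, spread, positions and arrays.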

Additional observations from a re-analysis of the deposited data

Results flagged for a closer look

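The FFPE-FF difference itself differed between liver and brain, by the limma test of that difference, for 46 control probe sets. Those of the mouse targets were, as liver minus brain on the log2 scale, b-ActinMur 5 at 0.55, b-ActinMur M at 0.49, GapdhMur 5 at 0.64, GapdhMur M at 0.48, MURINE_b1 at 2.75, PyruCarbMur 3 at 0.97, PyruCarbMur 5 at 1.07 and PyruCarbMur MA at 0.75. Of these, PyruCarbMur 5 lay below the median of every FF array, and MURINE_b1 was near the top of the scale in brain. The change at 18 h differed between liver and brain for 1 control probe set, PyruCarbMur MB, at -0.89.

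Some 3'-5' gaps differed between tissues in opposite directions in FF and FFPE, in all 3 pairs of each preservation, and these contrasts were not tested. The mean liver-brain difference of the 18S gap was 0.11 in FFPE, where its 3' probe set was near the top of the scale, and -0.59 in FF. For BioB it was -0.31 in FFPE and 0.15 in FF. For BioC it was 0.23 in FFPE and -0.14 in FF. For DapX it was 0.17 in FFPE, where its probe sets were dim, and -0.82 in FF. The r2 probe sets of bioB, bioC and dap did not repeat these opposite directions. The r2-Ec-bioB gap was lower in liver in 6 of 6 pairs, and that of r2-Ec-bioC in 4, with 1 higher. The mean r2-Bs-dap gap in FFPE was -0.46 in liver and -0.44 in brain. The FFPE-FF difference of the TrpnX gap was -0.15 in liver and 0.36 in brain, likewise in all 3 pairs of each tissue and not tested.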

How the results depend on the processing

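Differences in level depended on the scale between arrays, whereas centring leaves gaps as they are. Under hybridization control centring 17 called differences of mouse transcript, 18S and repeat probe sets turned sign, and so did the higher calls of 3 trpn and 3 tag probe sets in brain and 3 and 4 in liver. FFPE-FF in brain became -0.80 for 18SRNAMur 5, -1.06 for b-ActinMur 5, -1.46 for GapdhMur 3, -0.47 for MUR_b2, -0.64, -0.39 and -1.06 for PyruCarbMur 5, MA and MB, and -1.03 and -0.51 for TransRecMur 3 and M. FFPE-FF in liver became -0.55 for 18SRNAMur 5, -0.71 for b-ActinMur M, -0.64 and -0.81 for GapdhMur 3 and M, -0.19 for PyruCarbMur MB, and -0.39 and -0.18 for TransRecMur 3 and M. Liver-brain in FF became -0.08 for PyruCarbMur MA. The same centring gave 20 calls for liver-brain in FFPE, 4 at 3 h and 16 at 18 h in liver, and 8 for the tissue difference at 18 h. The last count was 2 under quantile normalization and under limma-trend, which also gave 2 at 3 h in liver, and 1 tissue fitted alone gave 0 at 18 h in liver. Leaving out 1 array gave 20 to 32 calls for liver-brain in FFPE, 1 to 7 at 18 h in liver and 0 to 3 for the tissue difference at 18 h; the cause was not tested. Quantile normalization within each preservation, chosen after seeing the data, called 6 at 18 h in liver.

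No gap passed its test under any setting, but with 1 array left out the paired tests have 5 pairs and a smallest p of 0.0625, so those settings could not pass whatever the values. Taken from 3' to M, the 18S difference between FFPE and FF was -0.093, the DapX difference between tissues was 0.005, and the later-0 h difference was 0.016 for DapX, -0.029 for LysX, 0.20 for PyruCarbMur, 0.025 for r2-Bs-dap and -0.046 for r2-Bs-thr. Taken from M to 5', the liver-brain difference was 0.18 for 18S, -0.013 for PyruCarbMur and -0.082 for TransRecMur. Quantile normalization gave a later-0 h difference of 0.02 for DapX, 0.021 for PyruCarbMur and 0.052 for r2-Bs-dap. With 1 array left out the later-0 h difference ranged from -0.158 to 0.002 for 18S, -0.127 to 0.162 for PyruCarbMur, -0.185 to 0.018 for TransRecMur, -0.12 to 0.08 for DapX, -0.08 to 0.168 for ThrX, -0.247 to 0.23 for r2-Bs-dap and -0.097 to 0.225 for r2-Bs-thr. The filter on low values, which needed 3 arrays to reach their median, was passed by 57 of the 104 probe sets.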
